A study of Mus musculus with 18 samples.

Results

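The genes followed here are 10 components of the gp130, Stat3 and SOCS signalling axis, namely the receptor chains Lifr, Il6st, Cntfr, Il6ra and Osmr, the kinase Jak1, the transcription factor Stat3 and the feedback inhibitors Socs2, Socs3 and Cish. They were listed by name, with earlier results of these data known, so the shares of members that passed are descriptions. All 10 were found among the 47643 genes of the deposited counts. All 10 were also among the 13771 genes tested, which had more than 1 CPM (counts scaled to a common library size) in at least 3 libraries. Il6ra met this filter only through its 3 libraries at 16 hours post injury (HPI), the time point at which it was highest, so its place among the tested genes is no evidence of a change. The libraries come from embryonic dorsal root ganglia (DRG) of CD-1 mice, taken at e13.5, dissociated and grown as spots of cells in medium with the mitotic inhibitor FDU, which removes dividing non-neuronal cells. Control cultures were left uninjured and collected at DIV7 (7 days in vitro), and in the others the axons were cut with a blade 1, 3, 8, 16 or 24 h before the culture was harvested, with 3 libraries for each of the 6 groups. No genetic change and no treatment beyond the culture medium was labelled in any group. The sample labels give DIV7 for the collection of the spots, whereas the methods of the study give it as the day of injury, and no uninjured culture was kept alongside the later time points, so that injury and up to 24 h of further culture cannot be told apart. Nothing in the labels says whether the 3 replicates of a group came from separate litters or cultures, and the p-values below measure the spread between these samples only.

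Cytokines of the interleukin-6 family signal through the shared receptor chain gp130, which Il6st encodes. They differ in the partner chain that they also need, which can be the LIF receptor, the oncostatin M receptor, or the ligand-binding chains for IL-6 and CNTF, and JAK kinases bound to the receptors then phosphorylate STAT3, which enters the nucleus. STAT3 and STAT5 induce SOCS proteins and Cish, which in turn dampen the receptors and kinases, and in sensory neurons LIF and CNTF act as injury cytokines, phosphorylated STAT3 is carried back along cut axons, and SOCS3 is known as a brake on axon regrowth. RNA levels do not report on phosphorylation, so the values below concern the supply of transcripts and not the activity of the pathway.

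Depth ranged from 9478891 to 23082327 counts on genes per library. Sensory neuron markers were high throughout, with a summed level of 8870 to 9410 normalised CPM in control and 7690 to 8480 at 16 HPI. The 12 glial markers summed to 236 to 339 in control and 224 to 285 at 16 HPI, nearly all of it from S100b, Mbp and Pmp22, while the satellite glia marker Fabp7 had 0.704 ± 0.317 CPM (SD, n = 3) in control. The 6 myeloid markers summed to 3.62 to 6.01 in control, 5.74 to 6.24 at 16 HPI and 6.73 to 7.35 at 24 HPI, the 5 fibroblast markers to 2.51 to 9.46, 4.42 to 14.5 and 3.7 to 14.7, and the 4 endothelial markers to at most 1.42 in any library. Among the fibroblast markers Dcn was higher than in control (0.571 ± 0.31 CPM) by 2.07 on the log2 scale at 16 HPI (edgeR adjusted p = 1.77e-05) and by 2.22 at 24 HPI (adjusted p = 1.58e-05), and the cell division gene Top2a was higher by 1.44 at 24 HPI (adjusted p = 0.00995). Residual rRNA genes, in a list that also holds Lars2 and Rn7sk, summed to 26900, 15600 and 13000 CPM at 16 HPI and to 9710 to 13900 in the other 15 libraries. At 16 HPI 3 of the 6 that were tested passed, all higher, such as Lars2 (log2 fold change 6.08, edgeR adjusted p = 0.00113), which fell by 6.01 from 16 to 24 HPI (adjusted p = 0.00325). None passed as higher at another time point. Gm23935 and Lars2 did have log2 fold changes of 5.39 and 3.58 at 3 HPI (edgeR adjusted p = 0.198 and 0.17). Il6ra and Cish too passed against control at 16 HPI alone. With residual rRNA and mitochondrial genes left out of the fit, the same 7 members passed at 16 HPI, Il6ra with an edgeR adjusted p of 8.02e-05 and Cish with 0.00135. That refit changes the scaling and the fit and leaves the members' own counts as they were, so it cannot decide the part of the residual rRNA. The part of these other cells and of the residual rRNA in the members' values was not tested. Replicate 1 at 16 HPI stood apart within its group. Fold changes of the members that passed at 16 HPI are therefore given with and without it. Of these 7, Lifr, Il6st, Socs2 and Cish passed without it. Il6ra then fell below the filter. It passed with the tested genes held as in the full fit, a setting added after seeing the data.

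In uninjured cultures the members fell into an abundant and a scarce group. Per exon length, Lifr was the highest at 112 ± 18.8 RPKM (normalised CPM over total exon length in kilobases, mean ± SD, n = 3), followed by Il6st at 56.7 ± 5.71 and Stat3 at 24.8 ± 2.89 RPKM. Cntfr at 17.5 ± 0.268 and Jak1 at 16.9 ± 0.671 RPKM had overlapping values. Each of these 5 genes had a mean of 874 counts or more in control. The other members were far lower, with Socs2 at 0.512 ± 0.272, Socs3 at 0.244 ± 0.121, Cish at 0.0997 ± 0.0252, Il6ra at 0.0598 ± 0.0217 and Osmr at 0.0503 ± 0.0366 RPKM, and of the neighbours in this order only Cish and Il6ra had values that did not overlap. These scarce genes rested on few reads in control, from a mean of 88.7 counts for Socs2 down to 9 for Il6ra. A low level in a bulk culture can be few cells with the transcript or little RNA per cell, which cannot be told apart here.

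**Figure D1:**
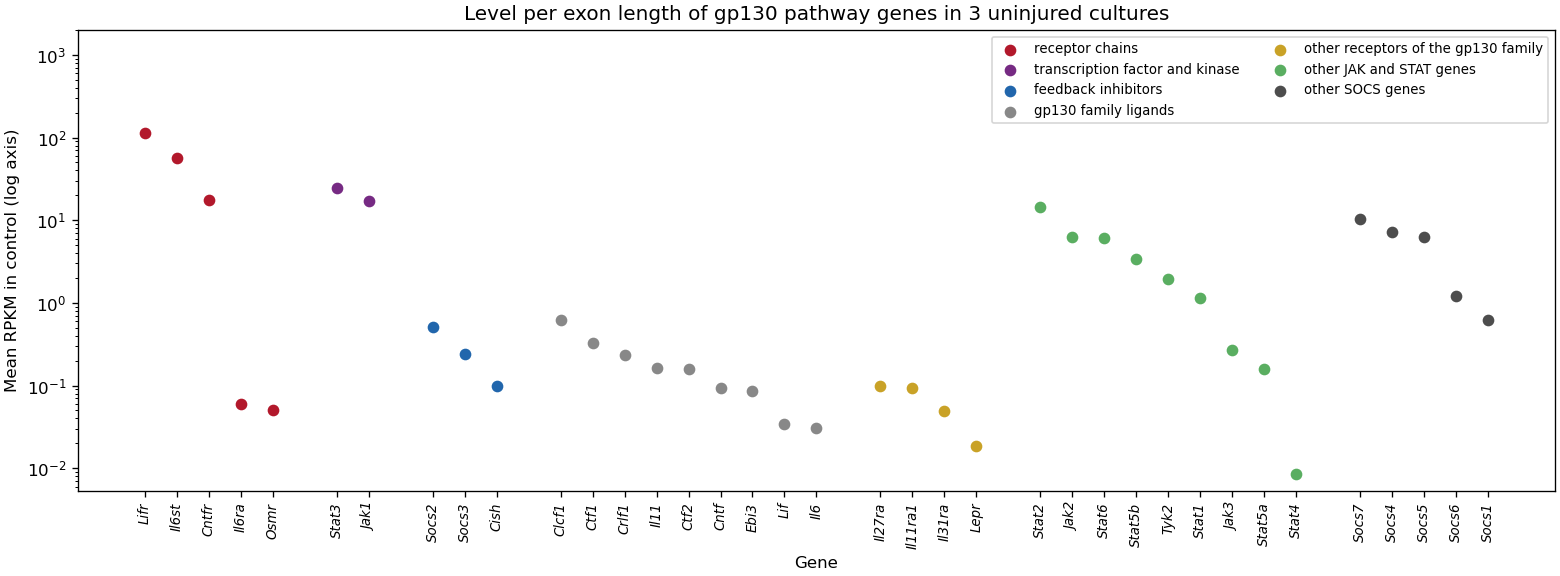
Each point is the mean level of a gene over 3 uninjured libraries, as RPKM over total exon length on a log axis, for the 10 members in 3 groups by role and for the other genes of the gp130 family lists. Lifr, Il6st, Cntfr, Stat3 and Jak1 lie above 10 RPKM, while Il6ra, Osmr, the 3 feedback inhibitors and every ligand lie below 1 RPKM. Osm and Il27, with no count in any control library, cannot be drawn on a log axis.

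The receptor chains for LIF and CNTF were therefore the abundant ones in these neurons. LIF signals through Lifr with Il6st, and CNTF through Cntfr with both. Measured per length in the same library, Lifr stood at 1.98 ± 0.341 times Il6st in control (n = 3) and Il6st at 3.25 ± 0.369 times Cntfr. By contrast, Il6st stood at 1050 ± 453 times Il6ra, the chain that binds IL-6.

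Transcripts of the ligands themselves were near the limit of detection, which was set at 3 counts, or 0.131 to 0.319 CPM depending on the library. Only 2 of 11 ligand genes were tested, Clcf1, a partner ligand of the CNTF receptor, at 2.33 CPM and Ctf1, cardiotrophin 1, at 0.593 CPM in control, and neither passed the test at any time point. No count of Osm was found in any of the 18 libraries. The highest count of any library was 2 for Il6, 3 for Cntf and 8 for Lif. Of 4 other receptors that pair with gp130 or are of its kind, Il11ra1, Il27ra, Il31ra and Lepr, none reached the filter, with at most 1.33 CPM for Il11ra1.

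The comparison of each injured group with control asked which genes changed after axotomy, using the quasi-likelihood test of edgeR with Benjamini-Hochberg adjusted p-values over all 13771 genes and the replicate number as a batch term. A gene passed the test with an adjusted p under 0.05. All 5 comparisons share the 3 control libraries. At 1 HPI none of the 10 members passed, where 0.276% of all genes did, and at 3 HPI again none, against 0.189%, with 1 member at an unadjusted p under 0.05 at each of these times, Osmr and Il6st. At 8 HPI 1 member passed, Lifr, which was lower, against a background of 7.68% of genes passing, 3.78% higher and 3.90% lower. At 16 HPI 7 of 10 passed, where 22.2% of genes did, and of these 5 were higher, against 10.7% of genes, and 2 lower, against 11.5%. Of these, 3 were higher by more than 2-fold, Il6ra, Socs3 and Cish. Of all genes 1.49% passed with a change of more than 2-fold in either direction. Il6ra was tested only through its 3 libraries at 16 HPI, so its part in these counts is no support. At 24 HPI 3 members passed, against 15.0% of genes, with 1 higher (background 5.99%) and 2 lower (9.03%).

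Of the steps between neighbouring time points, the last 3 were tested, from 3 to 8, 8 to 16 and 16 to 24 HPI, and members passed most often from 8 to 16 HPI. No member passed between 3 and 8 HPI, where 2.30% of genes did. Between 8 and 16 HPI 4 passed, against 15.2% of genes, with Il6ra and Socs2 higher (background 7.30%) and Lifr and Il6st lower (7.86%). Only Il6ra passed with a change of more than 2-fold (0.937% of genes, in either direction). Between 16 and 24 HPI 1 passed, Il6ra, which was lower by more than 2-fold, where 9.82% of genes passed, 6.22% lower. Of all genes 0.508% passed this step with a change of more than 2-fold in either direction. Il6ra was tested only through its libraries at 16 HPI, so its part in the counts of these steps is no support either. A test for a difference at any time point was passed by 7 members, Lifr, Il6st, Il6ra, Socs2, Cish, Osmr and Stat3, where 30.0% of all genes passed, and Socs3 was not among them (edgeR adjusted p = 0.132).

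**Figure D2:**
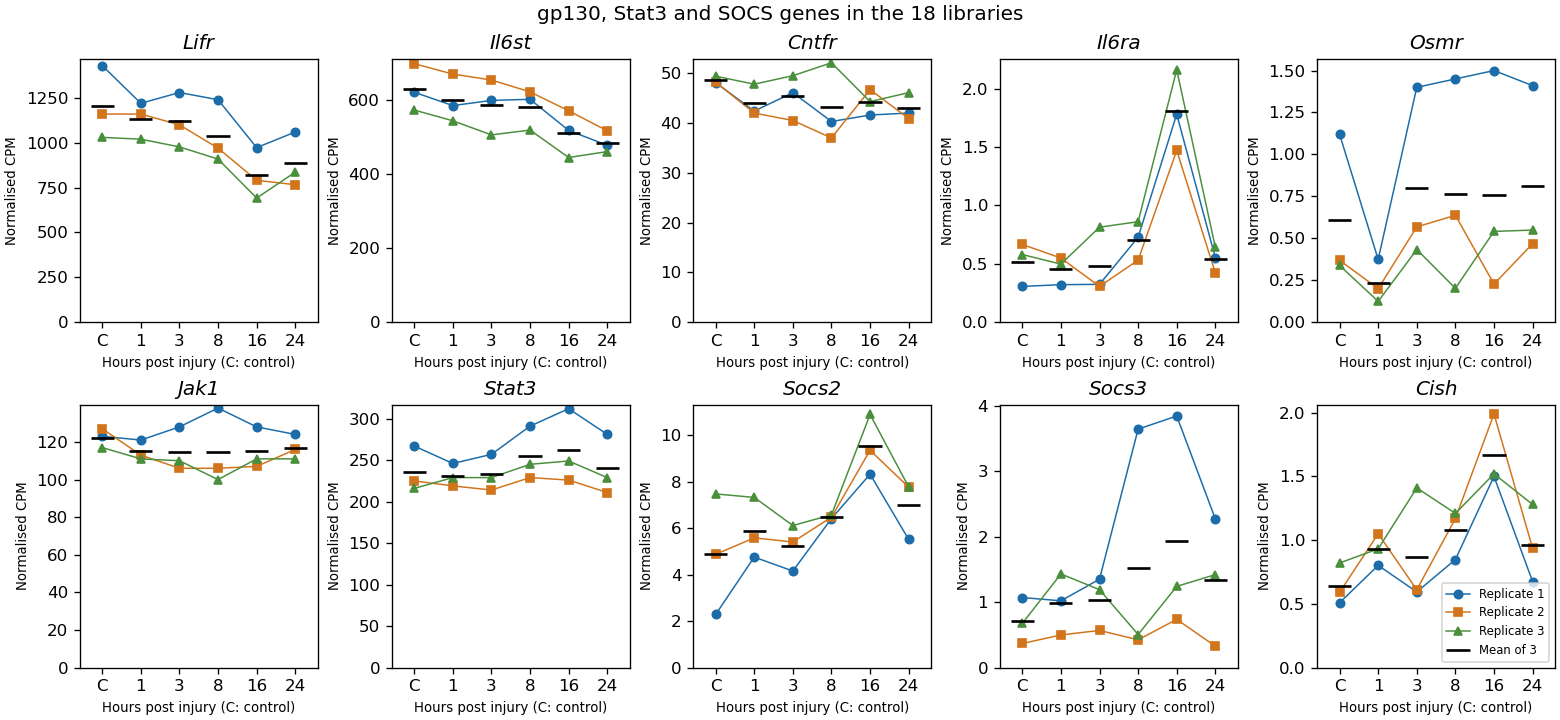
Normalised CPM of each member (vertical axes from 0, each with its own scale) in control cultures (C) and at 1, 3, 8, 16 and 24 HPI, with 1 line per replicate number and a bar at the mean of 3 libraries. Lifr and Il6st lie lower at 16 and 24 HPI, Il6ra and Cish peak at 16 HPI in all 3 replicates, and the Socs3 values of replicate 1 at 8 and 16 HPI lie far above those of the other replicates.

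Lifr (ENSMUSG00000054263.11, chromosome 15 of GRCm38 from 7090614 to 7197489) encodes the LIF receptor, which binds LIF and pairs with gp130. Its 3 control libraries had 1430, 1160 and 1030 normalised CPM for replicates 1, 2 and 3. At 1 HPI the values were 1220, 1160 and 1020, and at 3 HPI 1280, 1100 and 977. At 8 HPI they were 1240, 970 and 909, at 16 HPI 973, 791 and 692, and at 24 HPI 1060, 766 and 836 CPM. Replicate 1 was the highest at all 6 time points, and all 3 values at 16 HPI lay below all 3 of control. The levels at 16 HPI were 0.679 of control (log2 fold change -0.56, SE 0.06, adjusted p = 2.44e-06, edgeR), and the differences within batches were nearly equal at -0.55, -0.55 and -0.57. Without replicate 1 of 16 HPI the log2 fold change was -0.58 (adjusted p = 1.73e-05). At 24 HPI the log2 fold change was -0.44 (adjusted p = 8.24e-05, edgeR) and the groups overlapped, although the level was lower in each of the 3 batches. Between 8 and 16 HPI Lifr fell by 0.34 on the log2 scale (adjusted p = 0.000867, edgeR), and between 16 and 24 HPI the log2 change of 0.12 did not pass, with a 95% interval from -0.01 to 0.25. The difference at 8 HPI, -0.21 with adjusted p = 0.0406 (edgeR), was the weakest of these. It missed the threshold whichever of the 6 libraries of that comparison was left out, with adjusted p from 0.0743 to 0.132. Without the replicate number as a block, Lifr passed in none of these comparisons (edgeR adjusted p = 0.0638 at 16 HPI and 0.239 at 24 HPI).

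Il6st (ENSMUSG00000021756.12, chromosome 13 from 112464070 to 112510086) encodes gp130 itself. In control it had 620, 697 and 572 CPM. The values declined little at first, to 584, 669 and 543 CPM at 1 HPI, 598, 653 and 505 at 3 HPI and 601, 621 and 518 at 8 HPI. At 16 HPI the libraries had 517, 570 and 444 CPM and at 24 HPI 477, 516 and 460 CPM. Replicate 2 was the highest and replicate 3 the lowest at every time point, and neither the 16 HPI nor the 24 HPI values overlapped with control. Il6st was at 0.809 of its control level at 16 HPI (log2 fold change -0.31, SE 0.05, adjusted p = 0.000142, edgeR) and at 0.771 at 24 HPI (log2 fold change -0.37, adjusted p = 3.82e-05). Without replicate 1 of 16 HPI the log2 fold change at that time was -0.32 (edgeR adjusted p = 0.000678). The step from 8 to 16 HPI of -0.19 had an adjusted p of 0.0136 in edgeR, and the step from 16 to 24 HPI of -0.07 did not pass. That from 8 to 16 HPI missed the threshold with upper-quartile size factors (edgeR adjusted p = 0.0543) and without the replicate block (0.557). It was also lost without replicate 1 of 8 HPI and without replicate 3 of 16 HPI. The block mattered for this gene too, since the adjusted p without it was 0.166 at 16 HPI and 0.149 at 24 HPI. The sensory neuron marker Tubb3 was also lower at 16 HPI (log2 fold change -0.40, edgeR adjusted p = 1.09e-05), and its part in the lower receptor levels was not tested.

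Lifr and Il6st followed nearly the same course. Their Pearson r over the 18 libraries was 0.92 on log2 CPM with the batch removed, the highest of the 45 pairs of members, given as a description of 6 groups that share a culture system. The ratio of Lifr to Il6st per length was 1.66 ± 0.258 at 16 HPI (n = 3) and 1.90 ± 0.384 at 24 HPI, with ranges that overlapped that of control. Within batches the log2 ratio at 16 HPI was below control in all 3, by -0.29, -0.27 and -0.21, and at 24 HPI the differences were -0.04, -0.17 and 0.02. These differences of the ratio were not tested.

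Cntfr (ENSMUSG00000028444.17, chromosome 4 from 41657498 to 41697089) encodes the membrane-anchored chain that binds CNTF. Control cultures had 48.1, 48.2 and 49.4 CPM, the tightest control values of the 10 genes relative to their mean. The injured libraries ranged from 37.0 CPM in replicate 2 at 8 HPI to 52.1 CPM in replicate 3 at 8 HPI. All 3 values lay below those of control at 1, 16 and 24 HPI. No comparison passed for Cntfr, and the lowest adjusted p against control was 0.12 at 24 HPI (edgeR), with a log2 fold change of -0.18 and a 95% interval from -0.33 to -0.02.

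Il6ra (ENSMUSG00000027947.11, chromosome 3 from 89864059 to 89913196) encodes the chain that binds IL-6 and then recruits gp130. It had 0.306, 0.665 and 0.579 CPM in control, which were 6, 9 and 12 counts. At 1 HPI the values were 0.321, 0.549 and 0.497 CPM, at 3 HPI 0.324, 0.306 and 0.813, and at 8 HPI 0.727, 0.531 and 0.860 CPM. At 16 HPI they reached 1.78, 1.47 and 2.16 CPM, or 25, 26 and 40 counts, and at 24 HPI they were back at 0.552, 0.421 and 0.641 CPM. The 3 libraries at 16 HPI were thus the highest of all 18, with no overlap with any other group. The rise was 3.6-fold over control (log2 fold change 1.85, 95% interval 1.24 to 2.46, adjusted p = 9.57e-05, edgeR), 2.49-fold over 8 HPI (adjusted p = 0.00309), and from 16 to 24 HPI the level fell by 1.74 on the log2 scale (adjusted p = 0.000367). Within batches, 16 HPI exceeded control by 2.18, 1.03 and 1.72 on the log2 scale. The call did not depend on the filter that let the gene in, since with all genes of at least 10 counts over all libraries the log2 fold change was 1.86 and the edgeR adjusted p 4.3e-05. Without replicate 1 of 16 HPI Il6ra missed the filter. With the tested genes held as in the full fit, its log2 fold change was then 1.74 (edgeR adjusted p = 0.000853). Without the replicate block the log2 fold change was 1.82 with adjusted p = 0.0109, while the step from 8 to 16 HPI had an adjusted p of 0.0883.

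With the drop in Il6st and the rise in Il6ra, the excess of Il6st over Il6ra per length went from 1050 ± 453 times in control to 229 ± 70.0 times at 16 HPI and 728 ± 203 times at 24 HPI (n = 3 each). The level of Il6ra at its peak was therefore still far below that of gp130. The antisense gene Gm42809 shares 242 exon bases with Il6ra and had 0 to 3 counts per library. Myeloid cells also express Il6ra. Of their 6 markers, the highest count of any library was 6 for Cx3cr1, 8 for Ptprc, 15 for Csf1r, 28 for C1qa, 49 for Cd68 and 102 for Aif1. Cd68 was higher at 16 HPI (log2 fold change 0.97, edgeR adjusted p = 0.00698), while Aif1 did not pass there (log2 fold change 0.25, adjusted p = 0.43). The summed level of the 6 markers was 5.74 to 6.24 CPM at 16 HPI and 6.73 to 7.35 CPM at 24 HPI. Cd68 was higher at 24 HPI too (log2 fold change 0.93, edgeR adjusted p = 0.0125). The part of such cells in the Il6ra values was not tested.

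Osmr (ENSMUSG00000022146.12, chromosome 15 from 6813577 to 6874969) encodes the oncostatin M receptor, which joins gp130 to bind that cytokine. Control libraries had 1.12, 0.369 and 0.338 CPM, and those at 1 HPI had 0.374, 0.200 and 0.124 CPM. The remaining groups had 1.40, 0.568 and 0.433 CPM at 3 HPI, 1.45, 0.637 and 0.202 at 8 HPI, 1.5, 0.227 and 0.541 at 16 HPI, and 1.41, 0.468 and 0.549 at 24 HPI. Replicate 1 was the highest at all 6 time points. The lower values at 1 HPI (log2 fold change -1.35, 95% interval -2.24 to -0.45) did not pass the test over all genes, with an edgeR adjusted p of 0.194, and the groups overlapped, although each batch was lower. Osmr passed the test for any time point (adjusted p = 0.0179, edgeR) with no single time point past the threshold against control, and this call was lost without replicate 1 of 1 HPI (adjusted p = 0.26), without the replicate block (0.843) and in the DESeq2 likelihood ratio test (0.0972). At 2 to 26 counts per library, differences of this size were hardly resolved.

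**Figure D3:**
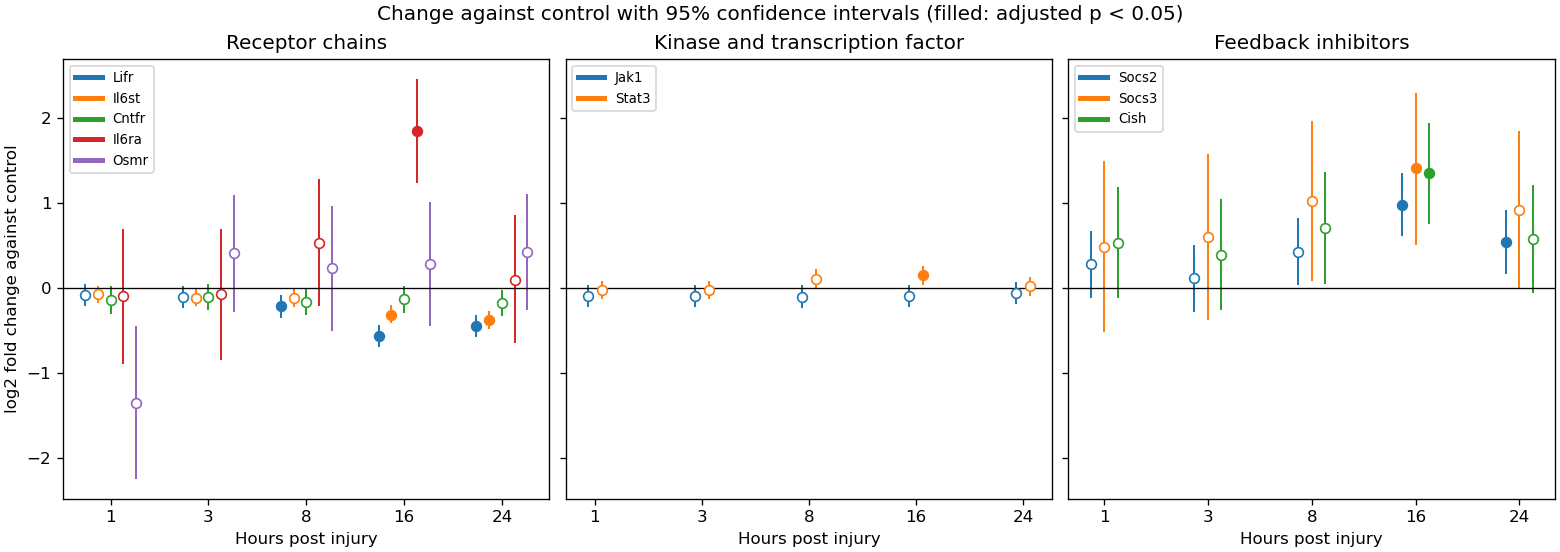
Log2 fold change of each member against control at 1, 3, 8, 16 and 24 HPI from the edgeR fit, with 95% confidence intervals, in panels for receptor chains, kinase and transcription factor, and feedback inhibitors. Filled points have an adjusted p under 0.05. Stat3 and Jak1 stay within 0.26 of 0 including their intervals, Lifr and Il6st lie below 0 at 16 and 24 HPI, and Il6ra and the 3 inhibitors are highest at 16 HPI.

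Jak1 (ENSMUSG00000028530.14, chromosome 4 from 101152367 to 101265282) encodes the main kinase bound to gp130. In control it had 123, 127 and 117 CPM and over the injured libraries between 100 and 138 CPM. Jak1 passed in no comparison. Its log2 fold changes against control lay between -0.10 and -0.06, and their 95% intervals between -0.23 and 0.07.

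Stat3 (ENSMUSG00000004040.16, chromosome 11 from 100885098 to 100939540) encodes the transcription factor that gp130 activates. Its control values were 267, 225 and 216 CPM. The injured libraries had 246, 219 and 229 CPM at 1 HPI, 257, 214 and 229 at 3 HPI, 291, 229 and 245 at 8 HPI, 312, 226 and 249 at 16 HPI, and 281, 211 and 229 CPM at 24 HPI. The groups overlapped at every time point and replicate 1 was always the highest. At 16 HPI Stat3 was 1.11-fold over control (log2 fold change 0.15, SE 0.05, adjusted p = 0.0479, edgeR), with differences within batches of 0.22, 0.01 and 0.21. This call sat at the threshold. With DESeq2's size factors the adjusted p was 0.0533, without the replicate block 0.631, without replicate 1 of 16 HPI 0.283 and without replicate 3 of control 0.236. Stat3 and Stat5a share 72 exon bases at their ends, and Stat5a had only 10 to 39 counts per library.

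The feedback inhibitors were the role in which every member was higher at 16 HPI. All 3 passed there, where 10.7% of all genes passed as higher. Their median log2 fold change was 1.35, where the median of all genes was -0.002. Without replicate 1 of 16 HPI 2 of the 3 passed, Socs2 and Cish, and without the replicate block only Cish did. At 24 HPI 1 of 3 passed, against 5.99% of all genes, and the median was 0.58. At 1, 3 and 8 HPI none passed, with medians of 0.49, 0.39 and 0.71. The values of Socs3 and Cish rested on few counts throughout, as given below.

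The promoters of the SOCS genes hold known sites at which STAT dimers bind, and the stretches that carry such letters are shown here because the inhibitors are the members known as targets of STAT3 and STAT5. RefSeq promoter windows of 300 bases (250 before and 50 from the start, GRCm38.p6) were at hand for 9 of the 10 members, all but Socs2. The letters TTCNNNGAA, a palindrome and so the same on both strands, were found in the windows of 2 of these 9 members, Socs3 and Cish. They were found in 8.3% of all 32851 windows. That is a share of windows and not of genes, and some genes, such as Cntfr, had several windows, so the 2 figures are not alike. The capitals below mark these letters, in Socs3 on the minus strand at chr11:117969472-117969560 and in Cish on the plus strand at chr9:107296619-107296678.
Socs3: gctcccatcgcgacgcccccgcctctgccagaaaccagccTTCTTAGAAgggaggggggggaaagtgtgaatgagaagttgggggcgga
Cish: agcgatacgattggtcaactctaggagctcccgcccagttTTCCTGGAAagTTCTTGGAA
In Socs3 the match began 154 bases before the start. Cish held 2 matches, one beginning at the start base and one 11 bases after it. A match of letters is a description and not a measured binding site, and the absence of these letters from the other windows says only that they are not in those 300 bases.

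Socs2 (ENSMUSG00000020027.18, chromosome 10 from 95385362 to 95417180) encodes an inhibitor best known for limiting growth hormone signalling through STAT5, and was the most abundant of the 3. Its control values were uneven, at 2.29, 4.88 and 7.48 CPM. At 1 HPI the libraries had 4.76, 5.59 and 7.33 CPM, at 3 HPI 4.16, 5.41 and 6.12, and at 8 HPI 6.42, 6.48 and 6.58 CPM. At 16 HPI they had 8.33, 9.36 and 10.9 CPM, and at 24 HPI 5.52, 7.77 and 7.78 CPM. Replicate 1 was the lowest and replicate 3 the highest at all 6 time points, and the 3 values at 16 HPI were above those of all other groups. Socs2 was 1.97-fold over control at 16 HPI (log2 fold change 0.98, SE 0.18, adjusted p = 0.000344, edgeR). The size of this rise depended on replicate 1, where the low control value gave a log2 difference of 1.81 against 0.93 and 0.54 in the other batches. Without replicate 1 of control the log2 fold change was 0.71 with adjusted p = 0.00148, without replicate 1 of 16 HPI 0.92 with adjusted p = 0.00223, and without the replicate block 0.96 with adjusted p = 0.0741 (edgeR).

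The step of Socs2 from 8 to 16 HPI was 0.55 on the log2 scale (edgeR adjusted p = 0.037) and did not pass without any 1 of 5 of the 6 libraries compared, nor without the block (adjusted p = 0.44). At 24 HPI the level was 1.46-fold over control (log2 fold change 0.54, adjusted p = 0.0459) and the groups overlapped. This call was lost when any 1 of the libraries of the comparison other than replicate 3 of control was left out, with a log2 fold change of 0.28 and adjusted p = 0.229 without replicate 1 of control, and it was lost without the block (adjusted p = 0.502). The drop from 16 to 24 HPI of 0.44 did not pass (edgeR adjusted p = 0.0992).

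Socs3 (ENSMUSG00000053113.3, chromosome 11 from 117966079 to 117970047) encodes the inhibitor that binds gp130 and JAK1 and blocks STAT3 activation. Its control values were 1.07, 0.369 and 0.676 CPM, or 21, 5 and 14 counts. At 1 HPI they were 1.02, 0.499 and 1.43 CPM, and at 3 HPI 1.35, 0.568 and 1.19 CPM. At 8 HPI replicate 1 had 3.64 CPM (60 counts), against 0.425 and 0.506 CPM (4 and 10 counts) in the other replicates. At 16 HPI the values were 3.84, 0.737 and 1.24 CPM and at 24 HPI 2.27, 0.328 and 1.42 CPM. Replicate 1 thus held the highest values at 8, 16 and 24 HPI, replicate 2 was the lowest at all 6 time points, and every injured group overlapped with control. At 16 HPI Socs3 was 2.65-fold over control (log2 fold change 1.41, 95% interval 0.51 to 2.30, adjusted p = 0.0221, edgeR), higher in all 3 batches by 1.74, 0.82 and 0.78 on the log2 scale. Without replicate 1 of 16 HPI, the library with the most residual rRNA, the log2 fold change was 1.06 and the adjusted p 0.203. The adjusted p was 0.164 without replicate 1 of control, 0.0503 without replicate 3 of control and 0.428 without the replicate block. At 8 HPI the mean was 2.04-fold over control with adjusted p = 0.181 (edgeR) and moved in opposite directions between batches, up in replicates 1 and 2 and down in replicate 3.

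Cish (ENSMUSG00000032578.7, chromosome 9 from 107296026 to 107302784) encodes CIS, the founding member of the family and a feedback inhibitor of STAT5 signalling. It had 0.509, 0.591 and 0.821 CPM in control. The values were 0.802, 1.05 and 0.932 CPM at 1 HPI, 0.594, 0.611 and 1.41 at 3 HPI and 0.848, 1.17 and 1.21 at 8 HPI. They peaked at 1.5, 1.99 and 1.52 CPM at 16 HPI and were 0.675, 0.936 and 1.28 CPM at 24 HPI. All 3 values at 16 HPI were above every value of the other groups, and each injured library was above the control library of its replicate number at all 5 time points. Cish was 2.55-fold over control at 16 HPI (log2 fold change 1.35, 95% interval 0.76 to 1.94, adjusted p = 0.00146, edgeR). Differences within batches were 1.37, 1.58 and 0.80, and the test passed without the block too (adjusted p = 0.0327). It passed as well without replicate 1 of 16 HPI (log2 fold change 1.27, adjusted p = 0.00762), whereas for any time point the DESeq2 likelihood ratio test gave an adjusted p of 0.058. The differences at the other time points, 0.53, 0.39, 0.71 and 0.58 at 1, 3, 8 and 24 HPI, did not pass, and neither did the drop of 0.77 from 16 to 24 HPI (edgeR adjusted p = 0.0603). Of the pair of antisense and pseudogene transcripts that share bases with Cish, Gm17041 had no count and Gm17040 at most 1 per library.

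Across the libraries some of the members followed opposed courses, Lifr and Il6st against Il6ra, Cish and Socs2. Il6ra, Cish and Socs2 had a Pearson r of 0.72 to 0.79 with each other (18 libraries, log2 CPM, batch removed), and Stat3 had 0.81 with Il6ra and 0.56 with Cish. Lifr had -0.80 with Socs2, -0.70 with Cish and -0.65 with Il6ra. Jak1 and Osmr were not close to any member, where the r of largest size was -0.26 for Jak1, with Cish, and -0.38 for Osmr, with Cntfr. These values describe 6 groups of 3 libraries, and several of the genes have few counts.

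**Figure D4:**
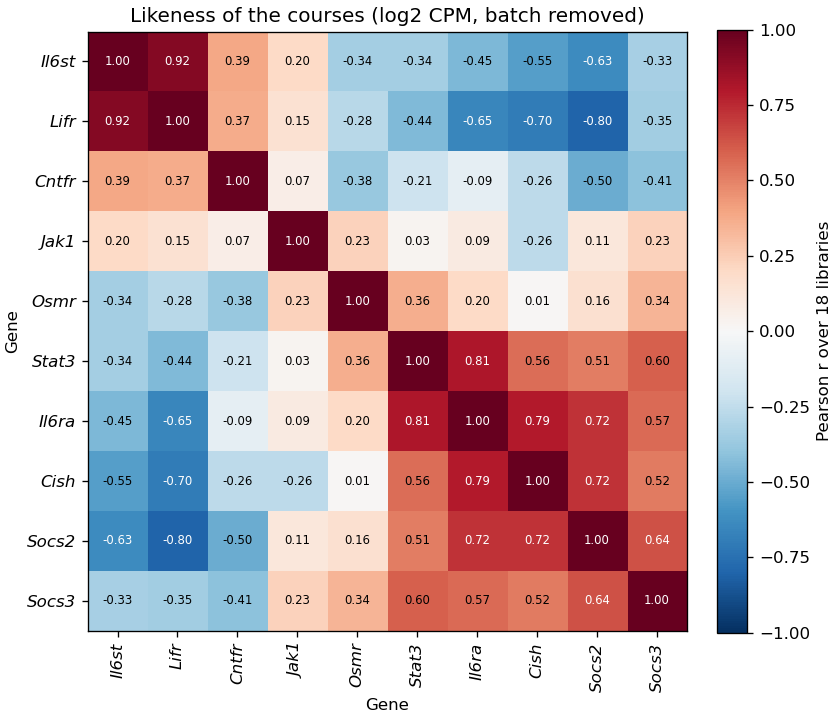
Pearson r between each pair of members over the 18 libraries, computed on log2 CPM with the batch removed, with red for positive and blue for negative values. Lifr and Il6st stand together at 0.92, Stat3, Il6ra, Cish, Socs2 and Socs3 form a block between 0.51 and 0.81, and Lifr runs opposite to Socs2 at -0.80.

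The 3 tested genes with the highest r to each member over 2-fold were as follows. For Il6ra they were Tmem246 (r = 0.927), Pik3cb (0.923), a catalytic subunit of phosphoinositide 3-kinase, and Jmjd1c (0.922), a chromatin protein of the histone demethylase family, with log2 fold changes at 16 HPI of 0.23, 0.86 and 0.60. Closest to Socs3 were Chd1l (0.822), Junb (0.815) and Ikzf2 (0.797). Those of Cish were Txnrd1 (0.906), which encodes thioredoxin reductase, Tmem86a (0.899) and 3010003L21Rik (0.896).

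Of 9 other JAK and STAT genes 8 were tested, and none passed up to 8 HPI. At 16 HPI 2 of the 8 passed, where 22.2% of all genes did, and at 24 HPI 2 of the 8, against 15.0%, shares near the background. At 16 HPI Jak2 was higher, at 39.8 ± 3.31 CPM against 31.6 ± 3.29 in control (log2 fold change 0.34, edgeR adjusted p = 0.00396), and Stat2 was lower, and both passed without replicate 1 of 16 HPI. At 24 HPI Stat2, the STAT of type I interferon signalling, was at 52.6 ± 2.47 CPM against 85.7 ± 7.81 (log2 fold change -0.70, adjusted p = 7.92e-07), and Stat5b was lower by 0.31 (adjusted p = 0.0141). The medians of this list were 0.04 at 16 HPI and 0.09 at 24 HPI.

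All 5 other SOCS genes were tested, and the rise seen in Socs2, Socs3 and Cish at 16 HPI was not called in any of them. Only Socs4 passed against control, at 8 HPI (log2 fold change 0.22, edgeR adjusted p = 0.0304), against 7.68% of all genes, and the list's median was 0.14 at 16 HPI. Among 7 tested genes of the PIAS and phosphatase inhibitors, only Pias3, an inhibitor of STAT3 binding to DNA, passed against control, at 24 HPI (log2 fold change 0.24, edgeR adjusted p = 0.0276), where 15.0% of all genes did. Socs2 and Cish also serve receptors outside the gp130 family. A wider list held 8 growth hormone, prolactin, erythropoietin and interferon receptor genes, without regard to which inhibitor serves them. Of these 8, 7 were tested, and 3 of the 7 passed at 16 HPI, against 22.2% of all genes, and 2 at 24 HPI, against 15.0%. At 16 HPI Prlr, the prolactin receptor, was lower at 13.4 ± 5.34 CPM against 20 ± 4.37 (log2 fold change -0.60, edgeR adjusted p = 0.00015) and Ghr, the growth hormone receptor, was lower by 0.29 (adjusted p = 0.0115), which without replicate 1 of 16 HPI had an adjusted p of 0.0672. Without that library 1 of the 7 passed at 16 HPI. Ifngr2, a chain of the interferon gamma receptor, was higher by 0.27 at 24 HPI (adjusted p = 0.000437).

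The known STAT3 target genes that passed against control were all higher. Of 20 genes 13 were tested, and 1, 1, 6, 8 and 3 of them were higher at 1, 3, 8, 16 and 24 HPI, with none lower, while 0.0944%, 0.0436%, 3.78%, 10.7% and 5.99% of all genes were higher at these times. Without replicate 1 of 16 HPI, 6 of the 13 were higher at 16 HPI, with adjusted p = 0.12 for Cebpb and 0.0728 for Cebpd (edgeR). The median log2 fold change of the 13 was 0.32 at 16 HPI, against -0.002 over all genes. At 16 HPI the 8 were Junb, Cebpb, Cebpd, Bcl2l1, Pim1, Pim3, Fos and Hif1a. Fos, an immediate early gene that many pathways induce, had the largest log2 fold change, 2.79 at 8 HPI (from 1.11 ± 0.646 to 7.11 ± 0.673 CPM, edgeR adjusted p = 5.73e-06), and was the gene that passed at 1 and 3 HPI. Junb was higher by 1.49 at 16 HPI (adjusted p = 2.68e-05) and Cebpd, an acute phase factor, by 1.25 (adjusted p = 0.011), while Cebpb was higher by 0.77 at 8 HPI (adjusted p = 0.00663). Myc, Mcl1 and Ccnd1 did not pass at any time point, with log2 fold changes at 16 HPI of 0.03, 0.04 and -0.04. Sprr1a, a target known from adult neurons, had at most 2 counts in any library and Vip at most 3, and the neuropeptide gene Gal did not pass, with 0.940 CPM in control and a log2 fold change of -0.72 at 16 HPI. Most genes of this list also answer to other factors, so its counts do not measure Stat3 activity. The list was also chosen with earlier results of these data known. Of 12 interferon-stimulated genes 5 were tested, and the only one to pass against control was Ifit3 at 16 HPI, which was lower by 1.09 (edgeR adjusted p = 6.82e-05) and had uneven control values of 28.9 ± 29 CPM.

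**Figure D5:**
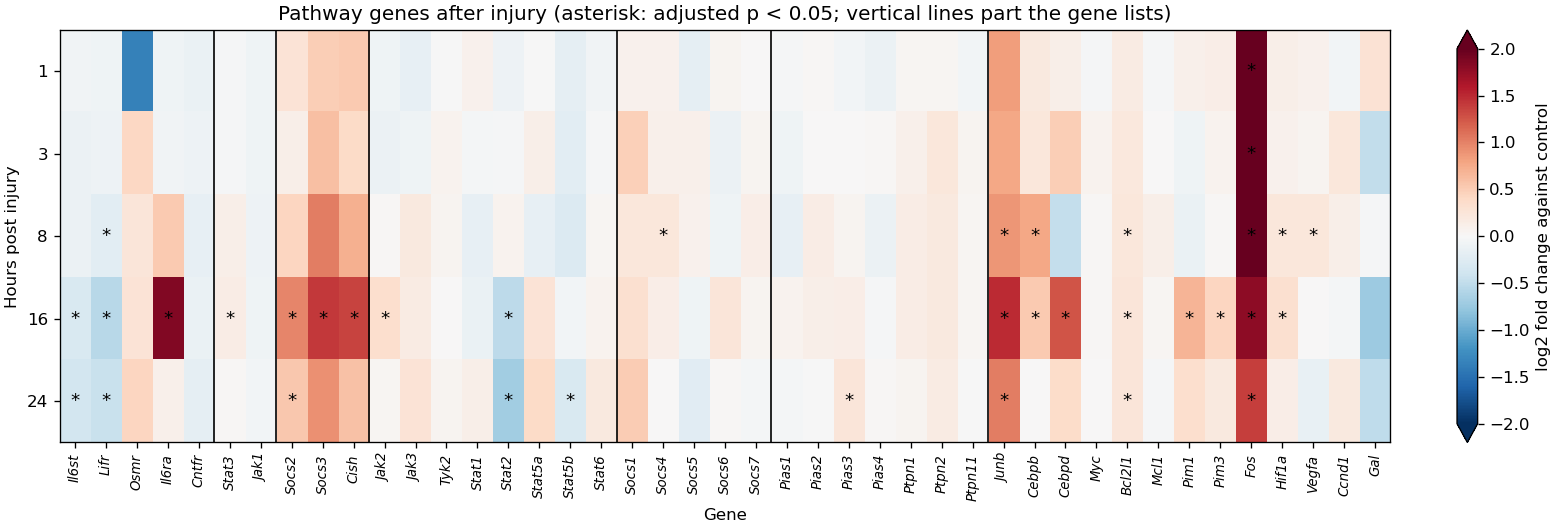
Log2 fold change against control (colour, limited to the range from -2 to 2) at 1, 3, 8, 16 and 24 HPI for the tested genes of 7 lists, from left to right the receptor chains, Stat3 and Jak1, the feedback inhibitors, other JAK and STAT genes, other SOCS genes, PIAS and phosphatase inhibitors, and known STAT3 targets. Asterisks mark an adjusted p under 0.05, and the 16 HPI row holds 7 of them among the members and 8 among the known STAT3 targets.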

How the data were processed

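RNA was sequenced from eDRG spot cultures in 18 libraries. Per the labels, total RNA was depleted of rRNA and converted with a SMARTer kit, whereas the methods of the study give a different kit for cDNA (High Capacity). Reads were aligned with STAR to mm10. The authors deposited raw counts per gene for each library, without normalization. The methods name featureCounts, whereas the submitters' processing notes name HTSeq, and the use of strand in counting is not given in the sources used here, so genes that overlap on opposite strands cannot be told apart. Entries for reads on no gene, 25.2% to 33.2% of all counts, were left out. GENCODE vM21 (GRCm38) gave names, positions and total exon lengths for 47224 of 47643 identifiers.

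Counts were normalised by TMM in edgeR 4.0.16 (R 4.3.3). Printed CPM are over the normalised library size, RPKM also over total exon length, and gene levels were averaged as mean ± SD. A quasi-likelihood model with time point and replicate number was fitted to all 18 libraries for genes above 1 CPM in at least 3 of them, and p-values (two-sided) were adjusted by Benjamini-Hochberg over 13771 genes. The replicate number served as a block because same-numbered libraries deviated together (r from 0.484 to 0.765 over 45 pairs, against -0.577 to -0.042 over 90 pairs of other numbers and groups). No 2 libraries were identical. The script was tested on simulated data. Correlations used log2 CPM with a prior count of 2 and the batch removed.

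The members and gene lists were chosen with earlier results of these data known. Named genes are all members, up to 4 genes of each list with the largest change past adjusted p 0.05 and the same direction in 3 batches, and the 3 genes most alike to each member over 2-fold. Other genes were named after their values were seen. Alternatives were DESeq2 1.42.0, other size factors, other filters, no replicate block, residual rRNA with mitochondrial genes excluded, fits of only the 2 groups compared, and omission of 1 library at a time. DESeq2 without independent filtering, its likelihood ratio test for any time point, and leaving out a library with the tested genes held fixed were added after seeing the data. Count-based limits cover counting error only.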

Additional observations from a re-analysis of the deposited data

How the results depend on the processing

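Among 1595 recomputed values, 1507 stayed on their side of the threshold, 69 no longer passed, 19 newly passed, and none that passed changed sign. Without the replicate block, the members that passed numbered 0 at 8 HPI, 2 at 16 HPI (Il6ra and Cish), 0 at 24 HPI, 0 between 8 and 16 HPI and 1 for any time point (Il6ra). With genes above 1 CPM in all 18 libraries, which drops Il6ra, Osmr, Socs3 and Cish, 4 passed at 16 HPI, 0 between 16 and 24 HPI and 4 for any time point. With the 2 compared groups alone 5 passed at 24 HPI, Cntfr and Socs3 in addition, and 2 between 16 and 24 HPI, Socs2 in addition. Leaving out 1 library at a time gave 0 to 2 members at 8 HPI, 4 to 8 at 16 HPI, 2 to 3 at 24 HPI, 2 to 4 between 8 and 16 HPI, 0 to 2 between 16 and 24 HPI and 4 to 7 for any time point. At 16 HPI Il6ra leaves the tested genes where a library of that time point is dropped, because the filter needs 3 libraries. The median of all genes stayed within 0.038 of 0 on the log2 scale with each of the 3 scalings. Depth limits Il6ra, Osmr, Socs3 and Cish, which had between 2 and 60 counts per library.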
